A study of Mus musculus with 12 samples.

Results

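Brightest and dimmest Sox2 reporter cells were compared in epithelium of the circumvallate papilla, a taste organ of the posterior mouse tongue. The comparison takes the 3 libraries of the High bin and the 3 libraries of the Low bin, 6 of the 12 libraries in the series, chosen by the bin that the labels give. Every mouse carried the Sox2GFP reporter and was an adult of 11 to 12 weeks, and each replicate pooled 7 to 13 mice. No other allele and no treatment is named for any group. Papilla cells were sorted by GFP brightness into the bins Low, MedLow, HiMed and High, and GFP-negative cells were discarded, so the Low bin is dim and not reporter-negative. No source used here says how the reporter drives GFP. The MedLow and HiMed libraries served to estimate the spread and to place a gene's level between the 2 ends.

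Sox2 is a transcription factor of the HMG-box family that epithelial progenitors of the tongue need to make taste cells. The papilla epithelium holds basal keratinocyte progenitors marked by Krt5 and Krt14, differentiating surface keratinocytes and taste buds, which are renewed throughout life. Growing basal cells invest in ribosomes and in the synthesis of amino acids and nucleotides. Cells that secrete or sense at the surface invest in the secretory pathway, the apical membrane and ion transport. The gene groups below follow those functions and not the standard taste marker lists. Taste genes that belong to such a group are counted in it.

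Sox2 was measured at 71.1, 76.1 and 63.8 CPM in Low and 378, 358 and 382 CPM in High (log2 fold change 2.41), and the eGFP transcript of the reporter at 91.1, 80.2 and 81.4 CPM in Low and 524, 536 and 555 CPM in High (log2 fold change 2.68). CPM is the count scaled by TMM library size, given for replicates 1, 2 and 3. The sort used this signal, so these values check the labels and carry no test. Library totals were 25.67 to 43.06 M estimated counts in Low and 42.44 to 53.38 M in High. Genes with any count numbered 18839 to 19696 in Low and 16911, 18421 and 18336 in High, fewest in High replicate 1. In all, 41.4% of 17432 genes tested were called in High against Low (adjusted p below 0.05 over all genes tested), 3512 higher (20.1%) and 3702 lower (21.2%), with a median log2 fold change over all genes of -0.01. The numbers of each list on counts are to be read against these 20.1% and 21.2%. The deposited TPM values are scaled for transcript length and were used without TMM scaling, so they differ from the counts in both respects. On them the median of all genes lay at 0.137 with a pseudocount of 1 and 0.172 with 0.1, and the split was 4355 higher and 2158 lower with the first and 4269 higher and 2192 lower with the second. For lists with 10 or more lower genes, the count of lower genes on TPM is given too where it differed by over 1.5 times. High and Low libraries did not overlap for 52.4% of genes tested, 25.6% above and 26.8% below.

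Marker lists of other cell types moved with the bins. The lingual keratinocyte markers summed to 35825.3 to 36679.7 CPM in Low and 6706.6 to 9089.8 CPM in High. Of these keratinocyte markers 6 of 8 tested were lower and 2 higher. The taste bud markers summed to 542.3 to 760.4 CPM in Low and 2437.5 to 4439.1 CPM in High, with all 6 higher. The taste bud list is made of simple keratins, a potassium channel and a claudin and holds no gene of taste transduction. Some transduction genes of sensory taste cells are among the lower members of the TRP channel and G protein lists below. Markers of the von Ebner gland, the serous gland that opens into the papilla trench, summed to 793.3 to 2507.2 CPM in Low and 35.7 to 170.2 CPM in High, with 5 of 9 tested lower (2 without Low replicate 2, with DESeq2 or with limma voom) and Aqp5 higher. The fibroblast list summed to 590.8 to 632.2 CPM in Low and 8.4 to 17.4 CPM in High; in Low almost all of it was from Dcn (587, 629 and 607 CPM in Low and 10.4, 8.21 and 2.27 CPM in High). Pdgfra, another of its members, had 2.8, 1.77 and 3.43 CPM in Low and 3.87, 8.43 and 5.68 CPM in High and was called higher (adjusted p = 0.0437); that call was lost without any of Low replicates 1 to 3 and High replicates 2 and 3 and in other alternatives. Its collagen genes were near 0: Col1a1 was at most 1.73 CPM in these libraries and Col1a2 at most 0.234 CPM. Schwann cell and neuron markers summed to 114.4 to 143.0 CPM in Low and 52.2 to 58.4 CPM in High, with Sox10 at 6.4, 5.33 and 9.19 CPM in Low and 0, 0 and 0.0996 CPM in High. The Merkel cell list, which contains Sox2 itself, summed to 122.3 to 136.7 CPM in Low and 748.2 to 928.3 CPM in High, with its defining gene Atoh1 at 0. Krt20, a keratin of Merkel cells that other epithelia express too, had 5.77, 6.09 and 8.8 CPM in Low and 381, 385 and 540.1 CPM in High, and Piezo2, the touch channel, had 46.2, 53.9 and 48 CPM in Low and 3.58, 5.66 and 5.74 CPM in High. The leukocyte list summed to at most 9.7 CPM in any High or Low library, the erythroid list to 9.2 CPM, the melanocyte list to 3.6 CPM and the skeletal muscle list to 3.2 CPM, and the endothelium list to 5.7 CPM in Low and 10 CPM in High. In the endothelium list Kdr had no counts in these libraries, the other two tested members were not called, and the gene Cldn5 had 0, 0 and 0 CPM in Low and 1.22, 1.41 and 0 CPM in High and was called higher (adjusted p = 0.0259, and 0.0547 to 0.0695 without any 1 of Low replicates 1 to 3 and High replicates 1 and 2). The part of these cells in the differences below was not tested. Listed genes that are not counted as tested below had too few counts for the test. In bulk libraries fewer cells of a type and less RNA per cell cannot be told apart.

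**Figure D1:**
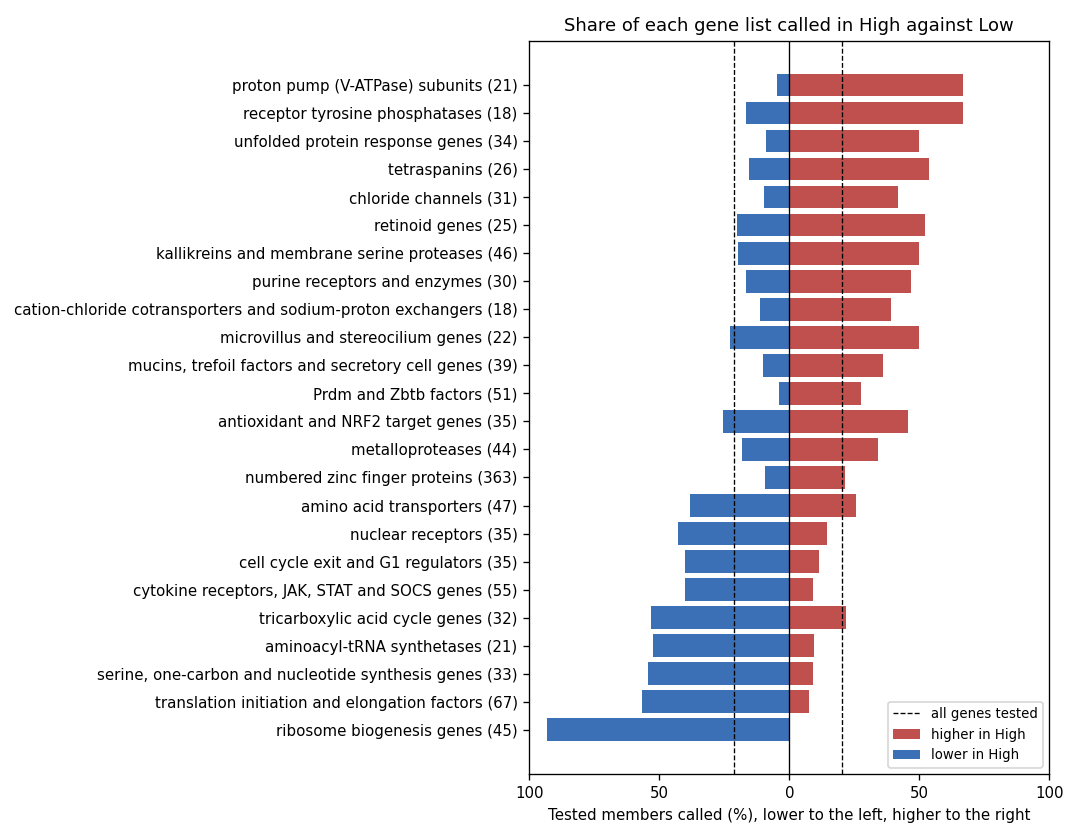
Share of the tested members of 24 gene lists (number tested in brackets) that were called higher in High (red, right) or lower in High (blue, left); the axis is percent of tested members, and dashed lines mark all genes tested, 20.1% higher and 21.2% lower. Ribosome biogenesis genes lie at the lower end with 42 of 45 lower, and proton pump subunits and receptor tyrosine phosphatases at the upper end with 14 of 21 and 12 of 18 higher.

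In absolute abundance, the widest differences in CPM were in Krt17, higher in High, and Krt5, higher in Low. Among the 12 called genes with the largest gain in mean CPM, Krt17 (a stress and appendage keratin) was at 3650.3 ± 336 CPM in Low and 15782 ± 3124 CPM in High (SD, n = 3 each), Ecm1 (an extracellular matrix glycoprotein) at 192 ± 37.9 and 3113 ± 933 CPM, and the chemokine Cxcl14 at 20.8 ± 5.06 and 1421 ± 501 CPM. The others were Krt75, Krt8, Sprr1a, Sprr2a2, 2300002M23Rik, Anxa1, Gsto1, Msln and Tgm3. Msln, which encodes the surface protein mesothelin, was at 79.5, 144 and 111 CPM in Low and 855, 740.2 and 1557 CPM in High, and High replicate 3 was the highest library for it. Sprr2a2 has near-identical neighbours among which an estimated count can be split, so its level is uncertain. 2300002M23Rik was at 3.93 ± 3.38 CPM in Low and 4566 ± 2181 CPM in High (SD, n = 3 each) and varied widely between the High libraries. In the other direction the 12 largest losses included the keratins Krt5, Krt13, Krt14 and Krt15, the elongation factors Eef1a1 and Eef2, the mitochondrial genes mt-Co1 and mt-Atp6, and the hemidesmosome genes Col17a1 and Dst. Igfbp2, a secreted binding protein of insulin-like growth factors, had 1169.9, 1382 and 1358 CPM in Low and 4.5, 5.71 and 5.1 CPM in High (log2 fold change -7.99 with SE 0.35, adjusted p = 1.87e-09), the largest fall on the log2 scale among those 12. Tchh, which encodes the hair and papilla protein trichohyalin, fell from 2162 ± 837 to 19.9 ± 5.23 CPM (SD, n = 3 each).

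Genes that make ribosomes were lower in the brightest cells almost without exception. Ribosome biogenesis begins in the nucleolus, where RNA polymerase I transcribes the precursor RNA and small nucleolar particles modify and cut it. Of 45 tested members of that list, 42 were lower and 0 higher, with a median log2 fold change of -0.79 (all genes tested: 21.2% lower, 20.1% higher, median -0.01). The nucleolar chaperone Npm1 had 662, 578 and 592 CPM in Low and 251, 272 and 219 CPM in High, and nucleolin, Ncl, had 906, 798 and 895 CPM in Low and 462, 428 and 411 CPM in High. The 2 bins did not overlap for either gene, and both fell (Npm1 log2 fold change -1.30, SE 0.09, adjusted p = 1.02e-07, and Ncl adjusted p = 1.91e-07, edgeR quasi-likelihood, adjusted by Benjamini-Hochberg over all genes tested, as for every adjusted p below). The largest falls in the list were Rrp12, a factor of ribosomal subunit maturation and export, at 50.3, 48 and 61.4 CPM in Low and 14.6, 19.7 and 17.1 CPM in High (log2 fold change -1.64 with SE 0.15, adjusted p = 1.12e-06), and Dkc1, the pseudouridine synthase of box H/ACA particles, at 65.7, 77 and 70.8 CPM in Low and 21.2, 29.3 and 22.9 CPM in High (log2 fold change -1.54 with SE 0.13, adjusted p = 6.82e-07). Mybbp1a, a nucleolar protein, fell as well (log2 fold change -0.94), and the catalytic subunit of RNA polymerase I, Polr1a, was at 81.5, 85.4 and 82.6 CPM in Low and 45.2, 37.3 and 30.1 CPM in High. The 3 members not called were Nop10 (log2 fold change -0.14), Utp15 (log2 fold change -0.28) and Rrn3 (log2 fold change -0.25). With limma on log2(TPM + 1) and log2(TPM + 0.1), 29 members were lower and 0 higher.

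Families grouped by symbol alone, with the letters before the first digit as the stem, were screened for a shared direction, and the stems Nop and Rrp were among those found: 7 of 8 tested genes of the stem Nop and 7 of 8 of the stem Rrp were lower (6 and 2 on TPM). Both stems share genes with the list above, and the counts are descriptions.

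Promoter windows of these genes were searched for the E-box CACGTG, the sequence that the Myc protein binds with its partner Max. The windows of 250 bases before to 50 bases after the start came from RefSeq (build GRCm38.p6), and 40 of the 45 genes matched by symbol. The E-box, which reads the same on both strands, was found in 10 of the 40 matched genes (25.0%) and in 7.15% of all 32851 windows. A gene counted if any of its windows matched, while the second share counts single windows of genes tested or not. These shares are therefore not on the same footing and were not compared by a test. Of those 10 genes, 9 were lower and Rrn3 was not called, beside 42 lower of 45 in the whole list, so genes with and without the E-box were lower. The windows of Nop2, an rRNA methyltransferase, and Utp18, a subunit of the small-subunit processome, are shown 5′ to 3′ in the gene's direction with the E-box in capitals; they lie at chr6:125131773-125131882 on the plus strand and chr11:93885767-93885876 on the minus strand.
Nop2: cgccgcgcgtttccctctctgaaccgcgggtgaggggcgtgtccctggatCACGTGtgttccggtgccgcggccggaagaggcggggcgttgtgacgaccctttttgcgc
Utp18: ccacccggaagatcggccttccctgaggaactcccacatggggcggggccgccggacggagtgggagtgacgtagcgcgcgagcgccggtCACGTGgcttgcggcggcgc
The letters end 1 base before the annotated start, and a match describes the sequence, not binding. Nop2 was at 81.7, 83.2 and 76.8 CPM in Low and 40.7, 36.6 and 37.7 CPM in High and Utp18 at 39.2, 51.2 and 42.6 CPM in Low and 24, 26.3 and 31.4 CPM in High, with no overlap between bins for either (log2 fold changes -1.07 and -0.70). The part of Myc in these values was not tested. Myc itself was at 342, 326 and 267 CPM in Low and 52.4, 59.7 and 30.4 CPM in High (log2 fold change -2.71 with SE 0.24, adjusted p = 7.97e-07), and its mean over the 4 bins from Low to High was 311, 335, 158 and 47.5 CPM. The related gene Mycl and the Myc antagonist Mxd1, both in the list of basic helix-loop-helix and related factors, rose from 77.8 ± 14.4 to 172 ± 37.2 CPM and from 48.9 ± 4.3 to 109 ± 17.6 CPM (SD, n = 3 each; log2 fold changes 1.14 and 1.16).

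**Figure D2:**
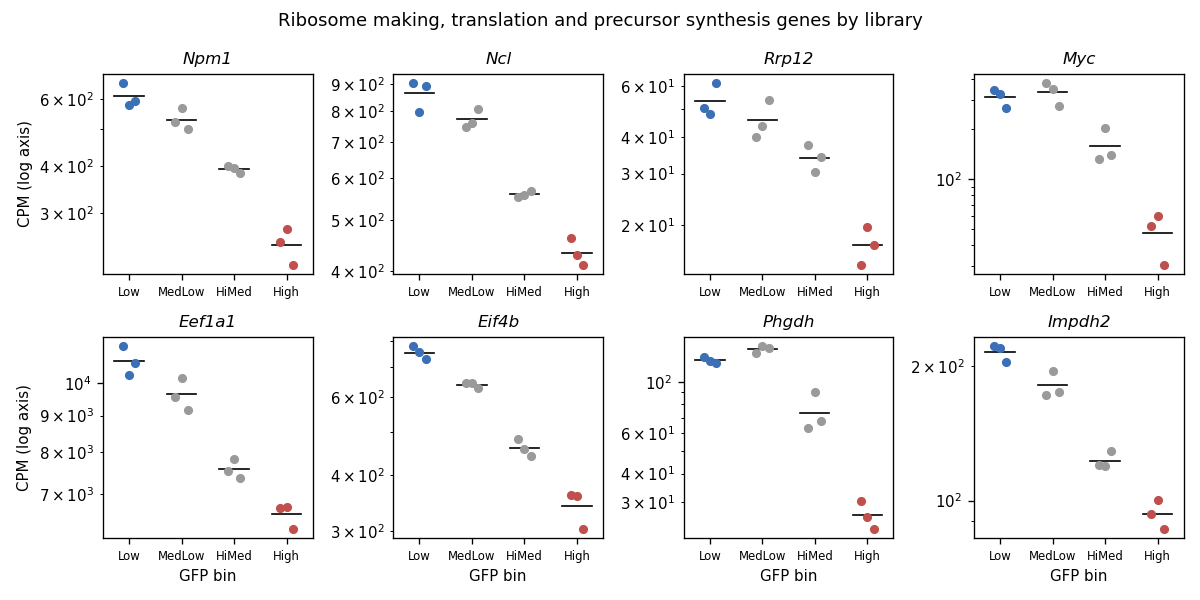
CPM on a log axis in all 12 libraries for 8 genes of ribosome making, translation and precursor synthesis; points are libraries (Low blue, High red, MedLow and HiMed grey) and bars are bin means. For all 8 genes the High libraries lie below the Low libraries, as for Npm1 with 219 to 272 CPM in High and 578 to 662 CPM in Low.

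Genes that work with ribosomes were more often lower than higher. Translation initiation and elongation factors were lower for 38 of 67 tested (89 listed) and higher for 5 (median -0.39), and lower for 25 on TPM with either pseudocount. Eef1a1, which brings aminoacyl-tRNA to the ribosome, had 11229, 10249 and 10635 CPM in Low and 6705, 6719 and 6270.1 CPM in High, and Eef2, which moves the ribosome along, had 5526, 5439 and 5342 CPM in Low and 3165, 3057 and 2819 CPM in High. No High library reached a Low library for these genes (log2 fold changes -0.71 and -0.85). The largest falls were in Eif4e3 (log2 fold change -1.62), a cap-binding protein, and Eif4b (log2 fold change -1.14), a cofactor of the helicase that unwinds mRNA leaders. The called genes in the other direction included Eif2ak3, the PERK kinase that slows initiation under endoplasmic reticulum stress (log2 fold change 1.30 with SE 0.14, adjusted p = 6.57e-06), and Eef2k, the kinase that inhibits Eef2 (log2 fold change 0.54 with SE 0.09, adjusted p = 4.00e-04). Testing the High and Low libraries alone, dropping the filter on low counts, or leaving out any of Low replicate 1, Low replicate 3, High replicate 2 or High replicate 3 left 3 members higher in place of 5. Eif2ak3 and Eef2k were called in every alternative run.

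Aminoacyl-tRNA synthetases, which charge tRNAs, were lower for 11 of 21 tested and higher for 2 (median -0.25), but lower for 5 on TPM; without any of Low replicates 1 and 2 and High replicates 1 and 3, 1 was higher. Eprs and Qars led the falls (log2 fold changes -0.73 and -0.73), and Cars was higher (log2 fold change 0.54). The cytosolic chaperonin, the Cct stem, folds new actin and tubulin, and 7 of its 8 tested members were lower (median -0.60). The importins, the Ipo stem, carry cargo that includes ribosomal proteins into the nucleus, and 6 of 7 tested were lower (median -0.52; 2 on TPM). Cct2 was at 386, 418 and 362 CPM in Low and 250.3, 267 and 256 CPM in High, and Ipo7 was at 254, 252 and 241 CPM in Low and 154, 166 and 144 CPM in High. The La-related proteins, the Larp stem, include Larp1, a regulator of mRNAs for ribosomal proteins, and 5 of 6 were lower with 1 higher (2 lower on TPM). These stem families, and the Mgat, PDZ and LIM domain (Pdlim), Dlx and Smc stems below, were found by screening 379 families for a shared direction. No test is given for any of them, and their counts are descriptions.

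The synthesis of serine, one-carbon units and nucleotides was lower for 18 of 33 tested genes and higher for 3 (median -0.52), and lower for 11 on TPM. Phgdh, the entry enzyme of serine synthesis, had 128, 123 and 121 CPM in Low and 30.3, 25.9 and 23 CPM in High (log2 fold change -2.23 with SE 0.13, adjusted p = 2.36e-08). Psat1, the next enzyme, and Impdh2, which commits purine synthesis to guanine nucleotides, fell as well (log2 fold changes -1.84 and -1.20). The largest fall was in Aldh1l2, a mitochondrial folate enzyme, which had 39, 47.8 and 36 CPM in Low and 0.36, 1.09 and 0.438 CPM in High. Ctps2, a CTP synthase, ran the other way (9.16, 6.29 and 6.9 CPM in Low and 15.6, 18.2 and 20.2 CPM in High). Of the tricarboxylic acid cycle genes, 17 of 32 tested were lower and 7 higher, but only 3 were lower and 8 higher on TPM with either pseudocount and the median there was above 0. Pdk4, a kinase that turns off pyruvate dehydrogenase, fell by 3.72 on the log2 scale in that list, and Cs, citrate synthase, fell by 0.70. Idh1, the cytosolic isocitrate dehydrogenase, rose by 1.07.

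More genes of the secretory pathway were higher than lower in the brightest cells. The unfolded protein response adjusts the folding capacity of the endoplasmic reticulum through the sensors Ern1, Eif2ak3 and Atf6. Of its 34 tested genes, 17 were higher and 3 lower (median 0.42; all genes 20.1% higher). Xbp1, the transcription factor that Ern1 activates by splicing, had 151, 127 and 140.1 CPM in Low and 382, 345 and 513 CPM in High (log2 fold change 1.57 with SE 0.13, adjusted p = 3.95e-07). Sel1l, a part of the degradation complex of the endoplasmic reticulum, had 63.8, 64.7 and 67.7 CPM in Low and 176, 154 and 226 CPM in High (log2 fold change 1.50 with SE 0.12, adjusted p = 3.60e-07). Neither gene overlapped between bins. The abundant chaperones rose less: Hspa5, known as BiP, had 637, 593 and 638 CPM in Low and 911, 798 and 1064 CPM in High, Calr, which encodes calreticulin, had 589.5, 635 and 690.1 CPM in Low and 872, 889 and 971 CPM in High, and Hsp90b1 had 457, 501 and 533 CPM in Low and 618, 663 and 718 CPM in High (log2 fold changes 0.57, 0.51 and 0.42). The sensor genes Ern1 and Atf6 had log2 fold changes of 0.68 and 0.35. Ddit3, which encodes the stress-death factor CHOP, was at 28.7, 24.9 and 24.7 CPM in Low and 25.9, 21 and 25.1 CPM in High, with overlapping bins and adjusted p = 0.521. Asns, asparagine synthetase, fell (log2 fold change -0.82).

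The ER stress element, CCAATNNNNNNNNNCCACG, is the sequence through which Atf6 and its partners act on chaperone genes. Searched on both strands in the same RefSeq windows, it was found in 9 of 29 matched genes of the unfolded protein response list (31.0%) and in 39 of all 32851 windows (0.119%). The list holds known targets of that element, so the share describes the list. As for the E-box, the first share counts genes and the second counts single windows. Of the 9 genes, Hspa5, Calr and Hsp90b1 were higher and the other 6 were not called. The 3 called genes and Pdia6, a disulfide isomerase that was not called (124, 149 and 149.9 CPM in Low and 147, 164 and 154 CPM in High), are shown 5′ to 3′ in the gene's direction with the element in capitals; in Calr it is on the opposite strand, so its letters read as the reverse complement.
Hspa5: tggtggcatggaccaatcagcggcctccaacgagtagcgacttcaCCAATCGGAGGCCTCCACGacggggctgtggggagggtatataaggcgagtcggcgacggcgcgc
Calr: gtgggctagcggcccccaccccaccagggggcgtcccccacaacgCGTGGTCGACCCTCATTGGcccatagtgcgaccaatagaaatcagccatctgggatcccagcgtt
Hsp90b1: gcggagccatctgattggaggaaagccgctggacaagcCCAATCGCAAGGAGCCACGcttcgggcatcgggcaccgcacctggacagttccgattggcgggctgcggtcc
Pdia6: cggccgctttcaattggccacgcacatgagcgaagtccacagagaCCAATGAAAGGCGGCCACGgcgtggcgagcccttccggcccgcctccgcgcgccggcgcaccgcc
The windows are at chr2:34771980-34772089 on the plus strand, chr8:84847029-84847138 on the minus strand, chr10:86705585-86705694 on the minus strand and chr12:17266446-17266555 on the plus strand. The element was present both in genes that were called and in Pdia6.

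The vacuolar proton pump acidifies the Golgi, secretory vesicles and lysosomes. Of 21 tested subunit genes (27 listed), 14 were higher and 1 was lower (median 0.53). Atp6v1e1 had 66.4, 69.5 and 76.5 CPM in Low and 149, 184 and 171 CPM in High (log2 fold change 1.25 with SE 0.10, adjusted p = 3.60e-07), and the accessory subunit Atp6ap1 had 105, 131 and 120.2 CPM in Low and 223, 229.7 and 202 CPM in High (log2 fold change 0.88 with SE 0.09, adjusted p = 3.15e-06). Every High library lay above every Low library for both. Atp6v0a4, a subunit of the pump of acid-secreting cells, was the member that fell (12.9, 21.7 and 19 CPM in Low and 4.41, 7.09 and 4.76 CPM in High, log2 fold change -1.71). Of 40 tested autophagy and lysosome genes (41 listed), 12 were higher and 5 lower (median 0.15), against 21 higher and 0 lower on TPM with either pseudocount. Sqstm1, an autophagy receptor, was higher (log2 fold change 0.65).

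Among mucins, trefoil factors and secretory cell genes, 14 of 39 tested (91 listed) were higher and 4 lower (median 0.63). Galnt2, which starts O-linked sugar chains, had 63.8, 82.2 and 69.6 CPM in Low and 197, 197 and 231 CPM in High (log2 fold change 1.54 with SE 0.12, adjusted p = 2.00e-07), and Galnt15 rose from under 1 CPM in every Low library to 13.4, 6.15 and 15.6 CPM in High. Fcgbp, a mucin-like secreted protein, had 56.7, 93.2 and 80.6 CPM in Low and 288, 221 and 493 CPM in High (log2 fold change 2.12), and Muc4, a membrane mucin, had 0.494, 0.605 and 0.441 CPM in Low and 12.9, 8.02 and 12.5 CPM in High. The secreted mucin Muc5b, a product of mucous glands and one of the gland markers above, was at 58.3, 88.8 and 88.8 CPM in Low and 0, 0.272 and 0.319 CPM in High and moved with that marker list. The N-glycan enzymes of the Mgat stem were higher for 6 of 7 tested. RLE scaling, DESeq2 and limma voom each gave 5 higher, and leaving out High replicate 1 gave 5 higher and 1 lower. Mgat3 was at 7.2, 11.2 and 10.9 CPM in Low and 149, 124 and 150.5 CPM in High. Mgat1 was at 60.9, 58.2 and 58.8 CPM in Low and 77.8, 91.6 and 78.2 CPM in High. Peptide hormones and the enzymes that process them are in 1 list, with hormones and enzymes in both directions. Cpe, which trims the ends of peptide hormones, had 75.5, 63.4 and 72.2 CPM in Low and 288, 258 and 339 CPM in High (log2 fold change 2.07 with SE 0.12, adjusted p = 2.77e-08), and Pam, which amidates them, had 33.8, 39.8 and 45.1 CPM in Low and 93.2, 80.6 and 76.1 CPM in High (log2 fold change 1.07 with SE 0.13, adjusted p = 2.12e-05). Of 26 tested genes in that list (55 listed), 3 were higher (Cpe, Pam and Pthlh) and 9 lower, or 5 lower without Low replicate 3 and 5 higher without High replicate 1. Pcsk1, a prohormone convertase, fell (log2 fold change -2.20), as did the vasoactive peptides Edn2 (log2 fold change -2.03) and Adm (log2 fold change -1.12), while Pthlh, parathyroid hormone-like hormone, rose (log2 fold change 2.26).

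**Figure D3:**
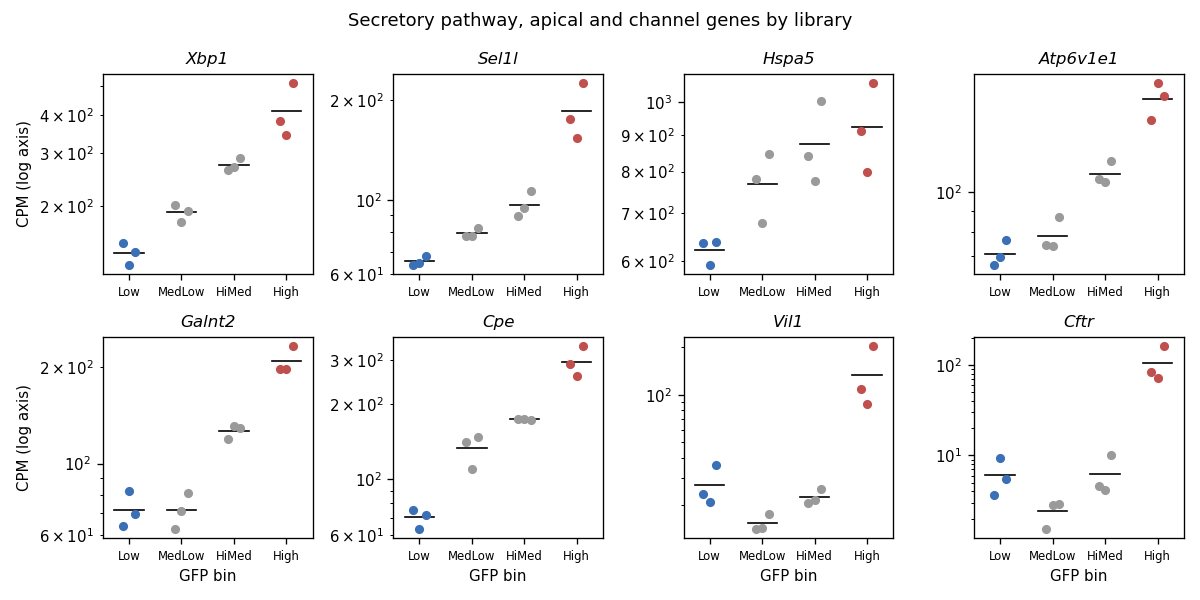
CPM on a log axis in all 12 libraries for 8 genes of the secretory pathway, the apical surface and ion transport; points are libraries (Low blue, High red, MedLow and HiMed grey) and bars are bin means. The High libraries lie above the Low libraries in each panel, and for Vil1 and Cftr the MedLow and HiMed means (15.4 and 22.5 CPM for Vil1, 2.41 and 6.28 CPM for Cftr) compare with Low means of 26.7 and 6.13 CPM.

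In the list of microvillus and stereocilium genes more were higher than lower. Microvilli and stereocilia are actin bundles held by villin, espin and plastin and joined at their tips by cadherins. Of its members 11 of 22 tested genes (34 listed) were higher and 5 lower (median 1.36), the 5 becoming 3 without Low replicate 3 or High replicate 1. Vil1, villin, had 23.4, 20.9 and 35.8 CPM in Low and 109, 87.2 and 202 CPM in High (log2 fold change 2.31 with SE 0.28, adjusted p = 1.43e-05), and Espn, espin, had 47.6, 28.4 and 54.4 CPM in Low and 136, 123 and 219.6 CPM in High (log2 fold change 1.87 with SE 0.26, adjusted p = 6.40e-05). Pls1, plastin 1, rose further (3.6, 5 and 6.49 CPM in Low and 68.1, 63.6 and 96.3 CPM in High). High replicate 3 was the highest of the 6 libraries for all 3 of these genes, and the bins did not overlap. Pcdh15, a tip-link cadherin of hair cells, had no counts in Low and 49.6, 29.8 and 73.3 CPM in High, at least 1772-fold higher against a floor of 3 counts over the Low bin. Of the lower genes the most abundant was Ezr, ezrin, which ties microvilli to the membrane, at 678, 659 and 693 CPM in Low and 529, 538 and 611 CPM in High (log2 fold change -0.27 with SE 0.08, adjusted p = 0.0179). Its call was lost on TPM, with library-size scaling and without any of Low replicate 3 and High replicates 1 and 2. Cib2, a calcium-binding protein of stereocilia, fell (log2 fold change -1.24).

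Myosins had 7 of 28 tested (39 listed) higher and 8 lower (5 lower without Low replicate 3), or 25.0% and 28.6%, near the 20.1% and 21.2% of all genes; on TPM the higher outnumbered the lower, by 7 to 6 and 8 to 4 with pseudocounts of 1 and 0.1. The vesicle motors Myo5c and Myo5b and the reverse-direction motor Myo6 rose (log2 fold changes 3.56, 1.52 and 1.23), as did the nonmuscle heavy chain Myh14 (log2 fold change 0.77), and Myo5a and Myo1c fell (log2 fold changes -1.04 and -0.74). Myo5c had 7.35, 13 and 9.83 CPM in Low and 104, 85 and 163 CPM in High, with no overlap. Tubulin genes were lower for 8 of 16 tested (19 listed) and higher for 3, with Tubb2b and Tuba1a higher (log2 fold changes 1.34 and 1.19) and Tuba8 lower (log2 fold change -3.69); 4 and 3 were lower on TPM. Tuba1a, Tuba1b and Tuba1c are near-identical, so their split is uncertain. Transport genes of the primary cilium were lower for 16 of 45 tested and higher for 4 (median -0.21), but lower for only 6 and higher for 8 on TPM. Tulp3, which brings receptors into the cilium, rose from 51.9 ± 2.68 to 108 ± 1.69 CPM (SD, n = 3 each). Among polarity genes, 9 of 32 tested were higher and 11 lower, against 12 and 9 on log2(TPM + 1) and 11 and 9 on log2(TPM + 0.1). On counts that is 28.1% and 34.4%, beside 20.1% and 21.2% of all genes. The apical protein Crb3 and the basolateral protein Llgl2 rose (log2 fold changes 1.26 and 0.70), and the large cadherins Fat1 and Celsr2 and the Golgi kinase-related gene Fjx1 fell (log2 fold changes -0.67, -0.72 and -3.25). Pdlim7, of the PDZ and LIM domain stem in which 5 of 6 tested were higher, had 67.9, 61 and 71.1 CPM in Low and 254, 254 and 276 CPM in High.

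Among ion transport genes, the chloride channels and their cotransporters held more higher than lower members. Of 31 tested chloride channel genes (40 listed), 13 were higher and 3 lower (median 0.35). Ano1, the calcium-activated chloride channel, had 51.6, 57.5 and 54.4 CPM in Low and 195, 156 and 222 CPM in High (log2 fold change 1.81 with SE 0.13, adjusted p = 1.47e-07), and Cftr, the cyclic AMP-gated one, had 3.67, 9.28 and 5.45 CPM in Low and 85.1, 72.8 and 162 CPM in High (log2 fold change 4.14 with SE 0.44, adjusted p = 4.89e-06). High replicate 3 was again the highest library for both. Best2, a bestrophin, and Clca2 also rose (log2 fold changes 2.20 and 0.72). Slc12a2, the cotransporter that loads chloride into secreting cells, had 189, 238 and 226 CPM in Low and 582, 522 and 702 CPM in High (log2 fold change 1.47 with SE 0.11, adjusted p = 2.77e-07), in a list with 7 of 18 tested (23 listed) higher and 2 lower. The sodium-proton exchangers Slc9a3 and Slc9a4 rose (log2 fold changes 5.84 and 4.93). Slc12a4, a potassium-chloride cotransporter, fell by 2.23 on the log2 scale.

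Of 4 tested water channels (12 listed), 2 were higher and 0 lower (2 lower without High replicate 2): Aqp11 had 0.636, 0.928 and 0.519 CPM in Low and 26.2, 19 and 32 CPM in High, and Aqp5 had 0.918, 2.06 and 1.76 CPM in Low and 13.4, 23.7 and 30.1 CPM in High. The water channel list summed to 420.1 to 453.6 CPM in Low and 326.1 to 495.3 CPM in High. Aqp11 and Aqp5 were thus a small part of it, and the sums overlapped between bins. Aqp5 is also a marker of the gland list, whose other called members were lower. The bicarbonate transporters Slc4a7 and Slc4a11 rose (log2 fold changes 2.24 and 1.67). Beta subunits of the sodium pump moved in opposite directions: Atp1b1 had 34.2, 31.3 and 38 CPM in Low and 110.3, 86.1 and 169.6 CPM in High and Atp1b3 had 339, 309.9 and 290.0 CPM in Low and 132, 144 and 93.5 CPM in High (log2 fold changes 1.82 and -1.34). Fxyd3, a pump regulator, rose (log2 fold change 0.59). Of the gap junction genes, Gjb2 and Gjb6 rose (log2 fold changes 1.34 and 2.32) and Gja1, which encodes connexin 43, fell from 1021 ± 53.2 to 452 ± 88.3 CPM (SD, n = 3 each). Trpm6, a magnesium channel, had 0.494, 1.25 and 1.45 CPM in Low and 33.2, 34.2 and 37.9 CPM in High. TRP channels as a group had 5 higher and 8 lower of 22 tested (32 listed), or 22.7% and 36.4%, beside 20.1% and 21.2% of all genes.

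Nutrient transporters exchanged members. In the list of amino acid transporters, 12 of 47 tested (67 listed) were higher and 18 lower (median -0.52). The list was matched by symbol, and its lower genes include opposite-strand genes that are not transporters. Slc7a1, the cationic amino acid carrier, had 394, 411 and 418 CPM in Low and 82.7, 85.8 and 64.3 CPM in High (log2 fold change -2.39 with SE 0.11, adjusted p = 2.35e-09), and the neutral amino acid carrier Slc38a2 fell as well (log2 fold change -1.06). Slc1a3, a glutamate carrier, went from 54.1, 48.5 and 46.6 CPM in Low to 0, 0.218 and 0 CPM in High. In the other direction Slc1a5, a glutamine carrier, had 24.9, 19.1 and 27.3 CPM in Low and 97.2, 71.9 and 104 CPM in High (log2 fold change 1.93 with SE 0.15, adjusted p = 2.42e-07), and Slc36a1, a lysosomal amino acid carrier, rose (log2 fold change 1.90). The GABA transporters Slc6a11 and Slc6a13 rose too, the latter with no counts in Low and 5.76, 4.75 and 12 CPM in High, at least 264-fold higher by the same floor. Among monocarboxylate and sugar transporters, 8 of 19 tested (25 listed) were higher and 5 lower (median 0.89). The lactate carrier Slc16a1 had 155, 138 and 148 CPM in Low and 39.6, 36.1 and 37.9 CPM in High (log2 fold change -1.96 with SE 0.09, adjusted p = 1.93e-09), while Slc16a11 had 16.3, 26.9 and 19.8 CPM in Low and 198, 195 and 222 CPM in High (log2 fold change 3.30 with SE 0.16, adjusted p = 3.90e-09). Slc16a10, an aromatic amino acid carrier, and Slc5a1, the sodium-glucose cotransporter, rose (log2 fold changes 4.53 and 1.79).

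ABC transporters were higher for 11 of 35 tested (50 listed) and lower for 8, or 31.4% and 22.9%, beside 20.1% and 21.2% of all genes. Abca13, a very large lipid transporter, had 0.33, 1.13 and 1.63 CPM in Low and 660.2, 488 and 1212 CPM in High (log2 fold change 9.61 with SE 0.64, adjusted p = 7.46e-08), the largest log2 fold change among the list's examples. Abca3 rose (log2 fold change 1.52), and the drug efflux pumps Abcc1, Abcc3 and Abcb1b fell (log2 fold changes -1.18, -1.68 and -2.63). Slco3a1, an organic anion transporter, had 9.44, 11.4 and 11.4 CPM in Low and 175, 133 and 221 CPM in High, in a list with 8 of 18 tested (42 listed) higher and 3 lower (5 higher without High replicate 1). Zinc importers split, with Slc39a14 higher (log2 fold change 1.43) and Slc39a6 and Slc39a10 lower (log2 fold changes -1.25 and -1.35). For iron, the uptake receptor Tfrc fell (log2 fold change -1.90) and the exporter Slc40a1 rose (log2 fold change 2.42). Trf, the carrier transferrin, had 6.26, 2.62 and 6.25 CPM in Low and no counts in High. Cp, the ferroxidase ceruloplasmin, had 30.6, 29.8 and 38.5 CPM in Low and 0, 0.417 and 0 CPM in High.

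Purine signalling held more higher than lower genes. Extracellular ATP acts on P2X channels and P2Y receptors and is degraded stepwise by ectoenzymes of the Entpd, Enpp and Nt5e kinds; in taste buds ATP is the transmitter to nerve fibres. Of 30 tested genes (35 listed), 14 were higher and 5 lower (median 1.08), and 2 and 3 were lower on TPM with pseudocounts of 1 and 0.1. P2ry2, a receptor for ATP and UTP, had 8.22, 12.2 and 13.4 CPM in Low and 114, 96.5 and 122 CPM in High (log2 fold change 3.30 with SE 0.23, adjusted p = 9.10e-08). Entpd2, which degrades ATP around taste cells, had 19.8, 23.6 and 16.2 CPM in Low and 183, 155 and 277 CPM in High (log2 fold change 3.37 with SE 0.20, adjusted p = 2.77e-08), with means of 19.9, 14.9, 12.2 and 205 CPM from Low to High. The 3 dimmer bins thus stayed at or under a mean of 19.9 CPM. P2rx2, a subunit of the ATP-gated channel of taste nerves, had no counts in Low and 7.63, 5.57 and 9.11 CPM in High, at least 259.8-fold higher. P2ry14, a receptor for UDP-sugars, rose (log2 fold change 6.09), as did Entpd5, an enzyme of the endoplasmic reticulum (log2 fold change 1.07). Enpp1, which makes pyrophosphate from ATP, fell (31.6, 31.6 and 31.7 CPM in Low and 4.3, 6.38 and 7.27 CPM in High, log2 fold change -2.40). Nt5e, which makes adenosine from AMP, had 29.5, 26.1 and 29.2 CPM in Low and 86.2, 103 and 67.6 CPM in High. Enpp2, which makes lysophosphatidic acid, had 1.7, 0.323 and 3.3 CPM in Low and 117, 79.5 and 131 CPM in High. Both were called, and neither overlapped between bins.

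Downstream of receptors, G protein subunits had 5 of 28 tested (33 listed) higher, or 8 with library-size scaling, and 9 lower. The 5 and 9 are 17.9% and 32.1%, beside 20.1% and 21.2% of all genes. On TPM the balance turned round, with 9 higher and 5 lower for a pseudocount of 1 and 8 higher and 6 lower for 0.1. Gnai1, an inhibitory alpha subunit, had 101, 97.7 and 107 CPM in Low and 6.64, 6.17 and 6.36 CPM in High (adjusted p = 1.81e-09), and Gnaq and Gna14, which activate phospholipase C, rose (log2 fold changes 0.68 and 1.92). Rgs2, which shuts off Gq signals, had 25.5, 15.5 and 23 CPM in Low and 129, 119.9 and 135 CPM in High (log2 fold change 2.58 with SE 0.19, adjusted p = 1.92e-07); of 20 tested RGS genes (23 listed) 8 were higher and 4 lower, or 5 higher without High replicate 1. Cyclic nucleotide enzymes had 12 higher and 10 lower of 37 tested (53 listed), exchanging isoforms in both directions. The 12 and 10 are 32.4% and 27.0%, beside 20.1% and 21.2% of all genes. Adcy1, an adenylyl cyclase, had 1.91, 1.13 and 2.65 CPM in Low and 80.5, 61.9 and 128 CPM in High (log2 fold change 5.54 with SE 0.37, adjusted p = 7.86e-08), and Adcy8 had 2.17, 7.83 and 7.45 CPM in Low and no counts in High, at least 270.4-fold lower. The phosphodiesterase Pde5a rose (log2 fold change 2.04), and Pde4b fell from 68 ± 12.8 to 1.59 ± 1.1 CPM (SD, n = 3 each). Plce1, a phospholipase C activated by Ras-family proteins, rose (log2 fold change 4.02), while Plcg2 and Plch2 fell (log2 fold changes -1.59 and -0.80). Their list had 7 higher and 5 lower of 22 tested (25 listed), or 31.8% and 22.7%.

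Receptors for peptides and lipids included several that were near absent in Low. Of 24 tested peptide hormone receptors (61 listed), 9 were higher and 6 lower, or 3 lower in the High and Low libraries tested alone and 2 with a filter of 1 CPM. Oxtr, the oxytocin receptor, had 0.165, 0 and 0 CPM in Low and 16.3, 14.2 and 9.03 CPM in High, and Vipr2, a receptor of vasoactive intestinal peptide, had 0, 0 and 0.208 CPM in Low and 10.1, 6.62 and 12.1 CPM in High. The opioid receptor Oprd1 and the receptors for insulin and growth hormone, Insr and Ghr, rose (log2 fold changes 4.19, 0.81 and 0.77), and the prolactin receptor Prlr fell (log2 fold change -4.28). Among 67 tested orphan, adhesion and lipid receptors (118 listed), 19 were higher and 14 lower, or 9 and 7 lower on TPM with pseudocounts of 1 and 0.1. The 19 and 14 are 28.4% and 20.9%, beside 20.1% and 21.2% of all genes. The thrombin receptor F2r and the related F2rl1 rose (log2 fold changes 1.85 and 1.02), and S1pr3, a receptor for sphingosine phosphate, had 68.6, 58.8 and 62.9 CPM in Low and 1.42, 0.888 and 2.71 CPM in High (log2 fold change -5.25 with SE 0.30, adjusted p = 1.74e-08). For neurotransmitter receptors the histamine receptor Hrh3 rose (log2 fold change 2.33).

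Cytokine signalling held more lower than higher genes. In this pathway receptors activate JAK kinases and STAT factors, and SOCS proteins feed back on them. Of 55 tested genes (68 listed), 22 were lower and 5 higher (median -0.14); on TPM with pseudocounts of 1 and 0.1, 12 and 13 were lower and 11 higher. Without High replicate 1, 8 were higher on counts. The list's median was 0.02 on log2(TPM + 1), below that of all genes there. Il6ra, the binding chain of the interleukin-6 receptor, had 111, 102 and 107 CPM in Low and 19.7, 21.1 and 18.5 CPM in High. Il6st, its signalling chain, had 158, 159 and 156 CPM in Low and 78.8, 75.8 and 88.6 CPM in High. Every Low library was above every High library for both (log2 fold changes -2.43 and -0.96). Il20rb, a chain of receptors for the interleukin-20 family, fell (log2 fold change -2.37). The feedback genes moved apart: Socs3 had 153, 177 and 157 CPM in Low and 53.3, 36.2 and 41 CPM in High (log2 fold change -1.90 with SE 0.16, adjusted p = 4.20e-07), whereas Socs2 had 26.3, 29.2 and 39.7 CPM in Low and 461, 403 and 501 CPM in High (log2 fold change 3.84 with SE 0.19, adjusted p = 6.08e-09). Il10rb and Socs6 rose (log2 fold changes 1.48 and 1.07).

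In the TNF family, 7 of 34 tested (46 listed) were higher and 10 lower, against 8 higher and 7 lower on log2(TPM + 1) and 7 and 6 on log2(TPM + 0.1). On counts these are 20.6% and 29.4%, beside 20.1% and 21.2% of all genes. Tnfrsf11b, the secreted decoy receptor osteoprotegerin, had 3.15, 4.8 and 4.28 CPM in Low and 67.3, 60.0 and 104 CPM in High (log2 fold change 4.25 with SE 0.35, adjusted p = 5.05e-07), and the nerve growth factor receptor Ngfr rose (log2 fold change 1.24). Tnfrsf1a, the main TNF receptor, and Edar, the ectodysplasin receptor, fell (log2 fold changes -0.61 and -1.11). Receptor tyrosine phosphatases were higher for 12 of 18 tested (20 listed) and lower for 3 (median 0.95). Ptpru had 55.9, 60.1 and 69.6 CPM in Low and 258, 229 and 247 CPM in High (log2 fold change 1.98 with SE 0.12, adjusted p = 2.82e-08), and Ptprt and Ptpro rose from lower levels (log2 fold changes 3.33 and 6.54). The phosphatases of MAP kinases were higher for 6 and lower for 6 of 19 tested (24 listed): Dusp4, Dusp5 and Dusp10 rose (log2 fold changes 2.60, 1.86 and 1.85), and Dusp1 and Dusp7 fell (log2 fold changes -0.76 and -1.27). Of the innate defence genes, 8 of 33 tested (115 listed) were higher, or 5 without High replicate 2, and 10 lower, or 6 in the High and Low libraries tested alone. The 8 and 10 are 24.2% and 30.3%, beside 20.1% and 21.2% of all genes. On TPM 9 were higher and 8 lower. Nod2, a sensor of bacterial peptidoglycan, had 230.4, 169.8 and 208 CPM in Low and 28.5, 35.7 and 25 CPM in High (log2 fold change -2.77 with SE 0.16, adjusted p = 2.21e-08), and Lyz2, a lysozyme, had 24.5, 41.5 and 32 CPM in Low and 99.9, 114 and 303 CPM in High, with High replicate 3 far above the others. The gene Bpifb1, a gland marker, had 92.8, 596 and 429 CPM in Low and 0, 50.8 and 0.418 CPM in High, and its call (adjusted p = 0.023) was lost without Low replicate 2 (adjusted p = 0.0645).

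**Figure D4:**
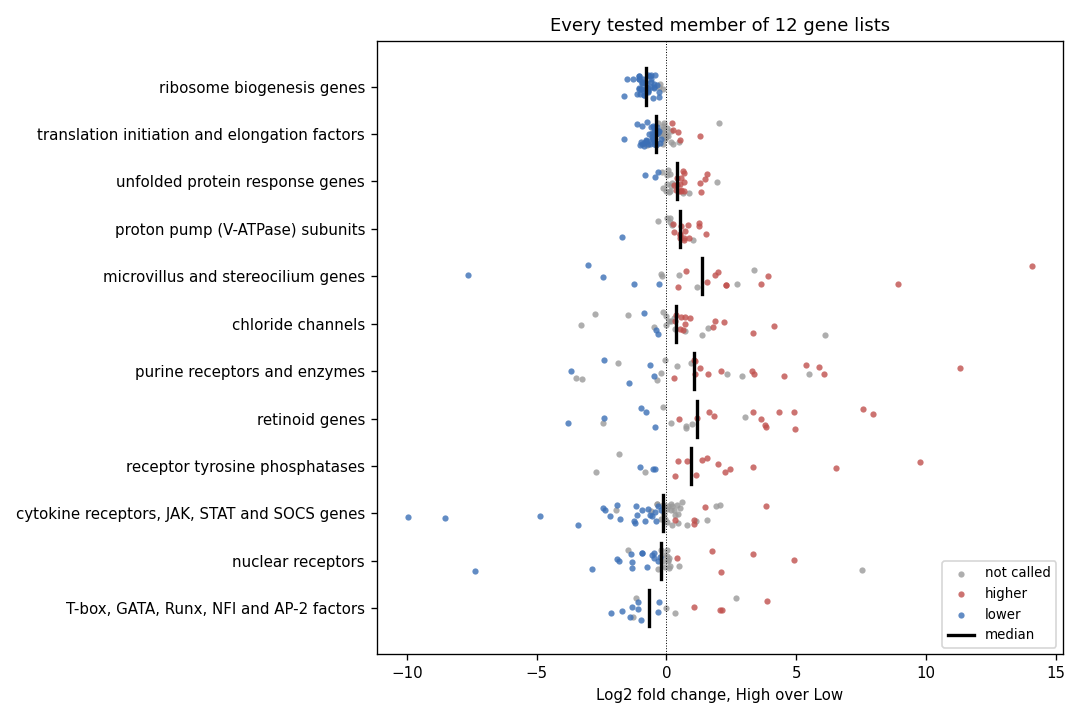
Log2 fold change of High over Low for every tested member of 12 gene lists; each point is a gene (red called higher, blue called lower, grey not called), and black bars are list medians. Ribosome biogenesis genes cluster tightly around -0.79, while retinoid genes spread on both sides of a median of 1.18.

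Retinoid genes were more often higher than lower, at steps from uptake to breakdown. Vitamin A enters cells as retinol, is oxidised to retinal and then to retinoic acid, acts through the nuclear receptors Rara, Rarb and Rarg, and is broken down by Cyp26 enzymes. Of 25 tested genes (27 listed), 13 were higher and 5 lower (median 1.18). Adh7 and Dhrs9, which oxidise retinol, rose (log2 fold changes 1.62 and 4.96). Aldh1a1, which makes retinoic acid, had 4.97, 6.01 and 9.45 CPM in Low and 184, 148 and 287 CPM in High (log2 fold change 4.92 with SE 0.45, adjusted p = 1.21e-06). The related Aldh1a3 had 4.38, 6.09 and 11.5 CPM in Low and 131, 107 and 202 CPM in High, and the uptake receptor Stra6 had 14.4, 15.6 and 16.5 CPM in Low and 164, 148 and 152 CPM in High; both were called higher. The breakdown enzyme Cyp26a1 had 0.282, 0.0403 and 0.285 CPM in Low and 40.9, 47 and 41 CPM in High (log2 fold change 7.58 with SE 0.44, adjusted p = 1.99e-08), and no High library came near a Low library. Among the lower genes, Crabp1, which holds retinoic acid, had 61.5, 69.1 and 56.3 CPM in Low and 3.76, 7.94 and 1.87 CPM in High (log2 fold change -3.77 with SE 0.37, adjusted p = 2.16e-06), and Fabp5 fell from 633 ± 27.7 to 119 ± 34.8 CPM (SD, n = 3 each). The dehydrogenase Rdh12 fell by 0.97 on the log2 scale.

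**Figure D5:**
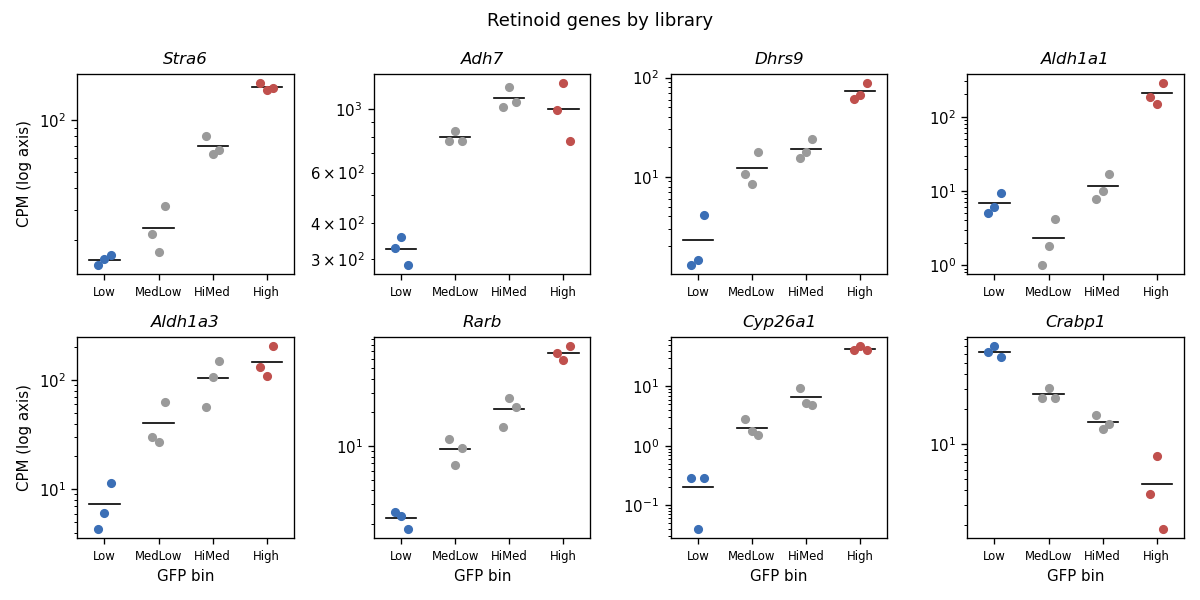
CPM on a log axis in all 12 libraries for 8 retinoid genes; points are libraries (Low blue, High red, MedLow and HiMed grey) and bars are bin means. Rarb and Cyp26a1 step up through the 4 bins, Aldh1a1 has its lowest mean in MedLow (2.33 CPM) and its highest in High (206 CPM), and Crabp1 steps down.

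Nuclear receptor genes held more lower than higher members, with 15 of 35 tested (47 listed) lower and 5 higher (median -0.21). Rarb, which retinoic acid induces, had the largest fold change of the 5 called higher, at 2.54, 2.38 and 1.82 CPM in Low and 67.8, 58.8 and 77.6 CPM in High (log2 fold change 4.92 with SE 0.27, adjusted p = 1.17e-08). Esrrg, an orphan receptor, rose as well (log2 fold change 3.35). Rarg and Rxra, the other abundant retinoid receptors, fell (log2 fold changes -0.55 and -0.96), as did the circadian receptor Rora (80.4, 62 and 74.1 CPM in Low and 9.99, 8.27 and 11 CPM in High, log2 fold change -2.89) and the Nr4a receptors Nr4a1 and Nr4a2 (log2 fold changes -0.94 and -1.92).

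Lipid mediators also exchanged enzymes. Of 38 tested eicosanoid genes (58 listed), 9 were higher and 14 lower (median -0.46). The cyclooxygenases moved in opposite directions: Ptgs1 had 48.6, 59.7 and 53.8 CPM in Low and 2.12, 1.07 and 3.25 CPM in High (log2 fold change -4.66 with SE 0.43, adjusted p = 1.33e-06), and Ptgs2 had 50.8, 45.8 and 30.8 CPM in Low and 151, 136 and 125 CPM in High (log2 fold change 1.69 with SE 0.18, adjusted p = 5.55e-06). Hpgd, which inactivates prostaglandins, had 109, 104 and 74.4 CPM in Low and 4.28, 7.54 and 2.39 CPM in High (log2 fold change -4.33 with SE 0.34, adjusted p = 3.11e-07). The lipoxygenase Alox12e and the carbonyl reductase Cbr2 rose (log2 fold changes 3.13 and 1.71). Sphingolipid and barrier lipid genes were higher for 16 and lower for 6 of 43 tested, of 44 listed (10 lower with the replicate number as a block). Degs2 and Sptlc3 rose (log2 fold changes 3.84 and 2.89), and Degs1, which makes ceramide, and the epidermal ceramidase Acer1 fell (log2 fold changes -1.86 and -4.93).

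Of 35 tested antioxidant genes, 16 were higher and 9 lower. Gpx2, a glutathione peroxidase, had 257, 226 and 247 CPM in Low and 718, 772 and 626 CPM in High (log2 fold change 1.53 with SE 0.09, adjusted p = 2.53e-08), and Gsr, which regenerates glutathione, had 30.8, 40.0 and 36.3 CPM in Low and 114, 109 and 131 CPM in High (log2 fold change 1.72 with SE 0.11, adjusted p = 5.17e-08). Nfe2l2, the NRF2 factor that governs many of these genes, rose by 0.44 and Slc7a11, the cystine importer, by 2.08. Sod1, Txn1 and the pentose phosphate enzyme Tkt fell (log2 fold changes -0.61, -1.01 and -0.91). In arginine metabolism, Arg1, which makes ornithine and urea from arginine, had 5.11, 7.22 and 13.7 CPM in Low and 208, 309 and 313 CPM in High (log2 fold change 4.99 with SE 0.51, adjusted p = 3.60e-06). Nos1, which makes nitric oxide from arginine, had 0.777, 1.09 and 2.62 CPM in Low and 55, 83.3 and 52.9 CPM in High (log2 fold change 5.39 with SE 0.40, adjusted p = 2.00e-07). Ass1, which takes part in arginine synthesis, had 124, 124 and 119.8 CPM in Low and 10.1, 11.7 and 9.25 CPM in High (log2 fold change -3.57 with SE 0.12, adjusted p = 2.00e-10). For these 3 genes the bins were far apart. In polyamine synthesis Odc1 rose and Srm fell (log2 fold changes 0.70 and -1.53); the whole list had 8 higher and 5 lower of 22 tested (27 listed).

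Surface proteases held more higher than lower genes. Of 46 tested kallikreins and membrane serine proteases (90 listed), 23 were higher and 9 lower (median 1.20), the 9 becoming 5 without Low replicate 2. St14, matriptase, had 168, 193 and 184 CPM in Low and 396, 377 and 459.8 CPM in High (log2 fold change 1.18 with SE 0.11, adjusted p = 2.03e-06), and Tmprss4 had 51.7, 41.1 and 41.8 CPM in Low and 291, 298 and 334 CPM in High (log2 fold change 2.78 with SE 0.12, adjusted p = 1.87e-09). Tmprss11b rose from 24.5 ± 6.31 to 324 ± 42.4 CPM (SD, n = 3 each), and Plau, urokinase, fell (log2 fold change -1.25). Inhibitors of these enzymes are in a separate list of cathepsins, cystatins and small inhibitors, with 11 higher and 9 lower of 33 tested (86 listed): Spint2, an inhibitor of matriptase, had 201, 199.8 and 208 CPM in Low and 383, 366 and 418 CPM in High, and Spink5, an inhibitor of kallikreins, had 55.2, 90.9 and 86.3 CPM in Low and 383, 534 and 487 CPM in High (log2 fold changes 0.94 and 2.60). Ctsl, a cathepsin, had 65.2, 61.3 and 64 CPM in Low and 299, 297 and 346 CPM in High (log2 fold change 2.31 with SE 0.10, adjusted p = 2.11e-09). Among metalloproteases 15 of 44 tested (86 listed) were higher and 8 lower (median 0.87), with 5 lower on TPM. Adam10, which sheds Notch and cadherins, and the membrane-type Mmp14 and Mmp15 rose (log2 fold changes 1.33, 0.95 and 1.09). Adamts15 had 85, 75.7 and 72 CPM in Low and at most 0.326 CPM in High.

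Small surface proteins changed members too. Of 26 tested Ly6 and Lypd genes (41 listed), 10 were higher and 6 lower: Ly6d and Psca rose (log2 fold changes 1.29 and 4.65) and Ly6a fell (log2 fold change -4.53). Psca had 5.34, 6.82 and 9.52 CPM in Low and 120.1, 186 and 238 CPM in High, and Ly6a had 69.4, 51.2 and 59.6 CPM in Low and 1.42, 3.75 and 2.57 CPM in High. Several Ly6 genes are close copies, so single members are uncertain. Tetraspanins, which organise membrane patches, were higher for 14 of 26 tested (29 listed) and lower for 4 (median 0.68), among them Tspan1 (13.4, 12.7 and 24.5 CPM in Low and 173, 156 and 299.5 CPM in High) and Cd9 (log2 fold change 0.31) higher and Tspan9 lower (log2 fold change -0.74). The annexin Anxa1 had 393, 464 and 495 CPM in Low and 1933, 2366 and 2341 CPM in High (log2 fold change 2.30 with SE 0.19, adjusted p = 3.93e-07).

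Transcription factor families split internally. In the T-box, GATA, Runx, NFI and AP-2 list, 4 of 18 tested (33 listed) were higher and 9 lower (median -0.66). The T-box repressors Tbx2 and Tbx3 rose and Tbx1 fell (log2 fold changes 2.06, 1.07 and -2.14). Tbx2 had 81.7, 89.6 and 74.9 CPM in Low and 359, 312 and 353 CPM in High, and Tbx1 had 73.1, 90.9 and 69.3 CPM in Low and 21, 14.5 and 17.3 CPM in High. Runx1 and Runx3 rose (log2 fold changes 2.15 and 3.87), and Nfib and the AP-2 factors Tfap2a and Tfap2e fell (log2 fold changes -1.08, -1.10 and -1.72). Forkhead factors were higher for 8 and lower for 10 of 29 tested (45 listed), the 10 becoming 6 on TPM, where 9 and 8 were higher with pseudocounts of 1 and 0.1. The shares on counts were 27.6% and 34.5%, beside 20.1% and 21.2% of all genes. Foxe1 had 164, 180.4 and 179 CPM in Low and 616, 586 and 478 CPM in High (log2 fold change 1.68 with SE 0.10, adjusted p = 2.18e-08). The pioneer factors Foxa1 and Foxa2 moved in opposite directions: Foxa2 had 17.9, 16.1 and 23.3 CPM in Low and 139.9, 103 and 136 CPM in High and Foxa1 had 222, 214 and 201 CPM in Low and 81.1, 74.1 and 96.9 CPM in High (log2 fold changes 2.72 and -1.34). Foxp2 fell by 4.28 on the log2 scale.

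Of 20 tested Ets factors (25 listed), 7 were higher and 6 lower, or 35.0% and 30.0%, beside 20.1% and 21.2% of all genes. Elf3, an epithelial member, had 220.0, 189 and 188 CPM in Low and 1000.4, 717 and 1131 CPM in High (log2 fold change 2.25 with SE 0.15, adjusted p = 9.26e-08), Etv1 and Etv5 rose (log2 fold changes 3.23 and 1.03), and Etv3 fell (log2 fold change -1.29). The distal-less factors of the Dlx stem were lower for all 6 tested (the antisense Dlx4os among them, which cannot be told apart from Dlx4 without stranded counting). With High and Low libraries only, the replicate block or TPM, 5 of these genes were lower. Dlx3 was at 177, 265 and 185 CPM in Low and 38.3, 56.7 and 38.9 CPM in High. Dlx5 was at 45.5, 58.1 and 31 CPM in Low and 4.25, 3.81 and 2.19 CPM in High. Among helix-loop-helix and related factors, Tcf4, a partner of many of them, had 103, 97.1 and 102 CPM in Low and 536, 495 and 587 CPM in High (log2 fold change 2.42 with SE 0.11, adjusted p = 3.30e-09), and Sim2 had 381, 345 and 328 CPM in Low and 90.2, 83.9 and 65.4 CPM in High (log2 fold change -2.14 with SE 0.11, adjusted p = 9.71e-09). Bhlhe40, a circadian repressor, rose (log2 fold change 1.11) and its relative Bhlhe41 fell (log2 fold change -1.22). Prdm and Zbtb factors were higher for 14 of 51 tested (57 listed) and lower for 2 (4 with DESeq2; median 0.09), with Zbtb7c and Prdm1 higher (log2 fold changes 0.87 and 1.83) and Zbtb16 lower (log2 fold change -5.85). Numbered zinc finger proteins were higher for 78 of 363 tested (406 listed) and lower for 34, or 22 without Low replicate 2 and without Low replicate 3 in turn and 16 and 18 on TPM with pseudocounts of 1 and 0.1; the 78 are 21.5%, close to the 20.1% of all genes. Zfp703 and Zfp608 rose (log2 fold changes 0.75 and 2.09), and Zfp36, which destabilises mRNAs, fell (log2 fold change -0.71).

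Regulators of chromatin and RNA held a few large changes among many genes that were not called. Dnmt3a, a DNA methyltransferase, had 46.2, 49.5 and 51.9 CPM in Low and 146, 129 and 184 CPM in High (log2 fold change 1.64 with SE 0.13, adjusted p = 3.07e-07), and Tet1, which oxidises methylcytosine, rose (log2 fold change 1.63), in a list with 8 of 31 tested higher (13 with library-size scaling) and 5 lower. These are 25.8% and 16.1%, near the 20.1% and 21.2% of all genes. The RNA-binding proteins Msi1 and Igf2bp2 had 3.25, 2.78 and 2.93 CPM in Low and 69.8, 52.7 and 82.8 CPM in High and 3.25, 4.44 and 3.45 CPM in Low and 73.5, 64.4 and 65.1 CPM in High (log2 fold changes 4.51 and 4.20), and Rbm47 rose (log2 fold change 1.59). Mbnl1, a splicing regulator of mature cells, had 239, 263 and 236 CPM in Low and 76.9, 79.2 and 69.3 CPM in High (log2 fold change -1.71 with SE 0.08, adjusted p = 2.47e-09), and the epithelial splicing factor Esrp1 fell (log2 fold change -0.48). Splicing regulators as a group had 10 higher and 8 lower of 35 tested (40 listed), or 28.6% and 22.9%, beside 20.1% and 21.2% of all genes.

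Regulators of G1 and of cell cycle exit, a list that holds both drivers and inhibitors of division, were lower for 14 of 35 tested and higher for 4 (median -0.30). The balance turned round on TPM, with 7 and 8 lower and 9 higher with pseudocounts of 1 and 0.1. Cyclin D1, Ccnd1, had 282, 266 and 302 CPM in Low and 77.1, 82.7 and 81.8 CPM in High (log2 fold change -1.82 with SE 0.09, adjusted p = 3.30e-09), and Gas6, a ligand of the Tyro3, Axl and Mertk receptors, fell (log2 fold change -1.82). Cdkn2b, the inhibitor p15, had 14.3, 8.75 and 14.9 CPM in Low and 45, 55.7 and 59.7 CPM in High (log2 fold change 2.07 with SE 0.19, adjusted p = 1.46e-06). The inhibitor Cdkn1a was at 396, 399 and 424 CPM in Low and 446, 467 and 430.5 CPM in High and was not called (adjusted p = 0.31; 0.015 with limma on TPM with either pseudocount). The Smc stem, core subunits of cohesin, condensin and a related complex, was lower for 5 of 6 tested (2 on TPM). Trp53 fell (log2 fold change -0.57). The list of p53 target genes counts Trp53 itself among its lower members. It had 7 higher and 9 lower of 27 tested, against 11 higher and 8 lower on TPM. On counts that is 25.9% and 33.3%, beside 20.1% and 21.2% of all genes. Among 49 tested cell death genes (60 listed), 15 were higher (30.6%) and 11 lower (22.4%), with 6 lower on TPM. The survival gene Bcl2l1 (30.8, 33 and 33.6 CPM in Low and 96.4, 89.8 and 109.6 CPM in High) and the death genes Bmf and Pmaip1 (log2 fold changes 2.99 and 1.00) rose, and Casp14, a caspase of cornified cells, fell (log2 fold change -5.95).

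Further lists moved in both directions. Of 83 tested heat shock and chaperone genes (102 listed), 14 were higher (16.9%) and 24 lower (28.9%; median -0.08), against 19 higher and 13 lower on TPM. The median was above 0 on TPM and with library-size scaling. Bag2, a cochaperone of Hsp70, had 28.3, 27.4 and 22.7 CPM in Low and 188, 157 and 151 CPM in High (log2 fold change 2.66 with SE 0.13, adjusted p = 3.30e-09). The small heat shock protein Hspb8 had 679, 604 and 560.3 CPM in Low and 250.1, 255 and 214 CPM in High (log2 fold change -1.36 with SE 0.10, adjusted p = 2.33e-07). Among Hippo pathway and YAP target genes, 10 of 26 tested (28 listed) were higher and 8 lower. The matricellular genes Ccn1 and Ccn2, both known targets of YAP, moved in opposite directions. Ccn2 had 40.5, 36.3 and 39.1 CPM in Low and 90.5, 105 and 114 CPM in High. Ccn1 had 1055, 1177 and 724 CPM in Low and 642, 571 and 490.3 CPM in High (Ccn2 and Ccn1 log2 fold changes 1.42 and -0.80). Tead2, a DNA-binding partner of YAP, had 11.3, 13.6 and 15.4 CPM in Low and 61.5, 58.8 and 59.4 CPM in High, with no overlap between bins. Mitochondrial carriers were higher for 14 of 43 tested (47 listed), or 32.6%, and lower for 12, or 27.9% (7 lower on TPM). The citrate carrier Slc25a1 rose and the phosphate carrier Slc25a3 fell (log2 fold changes 0.73 and -0.53). The synaptic adhesion list had 6 higher and 7 lower of 32 tested (55 listed), or 18.8% and 21.9%, near the 20.1% and 21.2% of all genes. On TPM 9 were higher and 4 lower. Slitrk6, a neuronal transmembrane protein of that list, had 21.6, 16.6 and 23.9 CPM in Low and 79.1, 93.2 and 80.1 CPM in High (log2 fold change 2.02 with SE 0.15, adjusted p = 2.22e-07). Nrxn2, a neurexin, had 0.989, 0.807 and 0.727 CPM in Low and 9.36, 9.56 and 8.35 CPM in High, without overlap between bins.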

How the data were processed

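RNA of sorted circumvallate epithelium was measured by poly(A) RNA-seq in 12 libraries, 3 per bin. The deposited count columns hold estimated counts per gene symbol (8.24% to 13% of values per library are not whole), and the deposited TPM columns hold length-scaled transcript abundances; Salmon 1.4.0, DESeq2 1.28.1 and mm39 are named per the submitters' processing notes. No source used here describes the step from transcripts to genes or the use of strand.

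Estimated counts were rounded to whole numbers. Genes passing filterByExpr (minimum count 10) were tested in edgeR 4.0.16 (R 4.3.3) with TMM scaling and the quasi-likelihood test of High against Low, fitted on all 12 libraries with a mean per bin; p-values were adjusted by Benjamini-Hochberg over 17432 genes, at a threshold of 0.05. The 35238 untested symbols held 0.0339% of counts. CPM values use TMM-scaled library sizes. The common biological coefficient of variation was 0.366. Nothing says that the replicates were sorted independently, so p-values measure only the spread between these libraries, which may be technical. No 2 libraries of a bin agreed within sampling noise.

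The bins and gene lists were chosen with earlier results of these data known, so list counts carry no test. Examples of a list are, per direction, up to 3 called genes of largest mean CPM and up to 2 of largest fold change, with libraries that do not overlap and a mean of at least 5 CPM in the higher bin. Polr1a, Aldh1a3, Stra6, Nt5e, Enpp2, Ern1, Atf6, Ddit3, Cdkn1a, Pdia6, Cldn5, Nop2 and Utp18 are exceptions, picked with their values in view. Genes at 0 in a bin are compared with a floor (3 counts in the bin's libraries together), which covers counting error only. List medians were the same at the printed precision with such genes at that bound. Each such gene kept its direction there, so a median could hardly move and the sameness is no check of the lists. The replicate number entered only as an alternative block. Other alternatives were library-size and RLE scaling, filters, leaving out each library, DESeq2 1.42.0, and limma 3.58.1 with voom and on log2(TPM + 1) and log2(TPM + 0.1). RefSeq promoter windows (GRCm38.p6) give sequence only; the counts used mm39, and the printed positions identify the windows in GRCm38.p6. A few list members are counted but not reported here by name.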

Additional observations from a re-analysis of the deposited data

How the results depend on the processing

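Sox2 and eGFP and all 313 called genes named in the text kept their direction in the 22 alternatives, and 305 of the 313 also kept their call. The call was lost for mt-Co1 and Tuba1c on TPM with either pseudocount, for Ada and Slpi with limma voom, for Cldn5, Ezr and Pdgfra mainly as given above, and for Bpifb1 as given above and with High and Low libraries only, DESeq2 and limma voom. The gene Nop10, which was not called, had a log2 difference of 0.0150 on log2(TPM + 1) and 0.0151 on log2(TPM + 0.1), against -0.14 on counts. The number of genes lower in High was 2158 with log2(TPM + 1) and 2192 with log2(TPM + 0.1), against 3702. On counts with library-size scaling in place of TMM it was 3176, with 3978 higher. The TPM values had no TMM scaling, and the cause of the difference was not tested. The other alternatives called 6602 to 7641 genes apart from those that left out a library, which called 6133 to 7587. With the replicate number as a block, 7339 genes were called against 7214 without it. The pairing was checked over 9927 genes: same-numbered High and Low libraries had correlations of 0.118, 0.0386 and 0.126 in their deviations from the bin means, and differently numbered ones -0.121 to -0.00143, so that each library correlated best with its own number; the labels do not say that a number marks a shared pool or day. For lists with fewer than 10 lower genes, TPM moved that count by between -5 and 2. The counts of High and Low libraries limit genes at 0 to a floor of 0.0284 CPM over the Low bin and 0.02 CPM over the High bin.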

Other observations

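Some genes had a High level below their Low level although the 2 middle bins were above both. Ada, which turns adenosine into inosine, had means of 24.5, 145, 199.6 and 8.86 CPM in Low, MedLow, HiMed and High. Fth1, the ferritin heavy chain that stores iron, had means of 748, 1157, 1044 and 407 CPM in the same order, and Slpi, a secreted inhibitor of serine proteases, 46.4, 81.4, 51.3 and 0.56 CPM. All 3 were lower in High than in Low, Ada and Slpi with adjusted p of 0.00608 and 1.48e-05 in edgeR but above 0.05 with limma voom. Atp1b3 followed the same course, with 313, 566, 343 and 123 CPM. Slc6a11, a GABA transporter that rose from Low to High, had its largest mean in HiMed (0.778, 27.5, 131 and 52.5 CPM), as did Ptgs2 (42.5, 93.4, 216 and 137 CPM). No test of the middle bins was made for these genes, and they were picked after their values were seen.

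Other genes took a step at the High bin. Fcgbp had means of 76.8, 17.3, 17.2 and 334 CPM from Low to High and Myo5c 10.1, 5.44, 18.1 and 118 CPM, so that the MedLow mean was below the Low mean in both. Ano1 had 54.5, 45, 52.4 and 191 CPM and Atp1b1 34.5, 21.8, 27.6 and 122 CPM in the same order. In contrast Socs2 (31.7, 62.5, 248 and 455 CPM) and Tcf4 (101, 134, 331 and 539 CPM) increased at each bin mean. Whether these courses differ was not tested.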
